A study of Mus musculus with 12 samples.

Results

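Dazl and 9 other genes that encode RNA-binding proteins of germ cells (Boll, Cpeb1, Elavl2, Ybx2, Igf2bp1, Igf2bp2, Igf2bp3, Tia1 and Fmr1) were followed through 3 fractions of adult mouse spermatogonia and whole testes. The members are the genes named so on the arrays. They are read by 16 of the 55681 probes, and make up 10 of 36315 gene names. The GFRα1+ fraction held GFP+ cells of mice with EGFP knocked in at Gfra1. The NGN3+ and KIT+ fractions were the GFP+/KIT- and GFP+/KIT+ cells of Ngn3-EGFP transgenic mice, in which GFP outlasts Ngn3 expression, and whole testes came from wild-type littermates of the knock-in line. All mice were C57BL/6, aged 10 to 11 weeks. Each group had 3 Agilent 1-colour arrays, each of a separate RNA sample: 1 mouse per GFRα1+ or KIT+ sample, 2 pooled mice per NGN3+ sample, 10000 to 20000 sorted cells per array and 500000 cells for whole testes.

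Germ cells make many mRNAs well before the proteins are needed, and RNA-binding proteins decide which of these transcripts are translated, stored or degraded. DAZL and its relative BOULE, the product of Boll, bind mRNAs and favour their translation. CPEB1 binds a short U-rich element and sets the length of the poly(A) tail, ELAVL2 binds AU-rich elements, and YBX2 packages mRNAs that haploid cells keep for later use. The IGF2BP proteins protect transcripts from decay, TIA1 silences mRNAs and gathers in stress granules, and FMRP, the product of Fmr1, represses translation. The comparisons ask how the transcripts of these regulators differ along the path from GFRα1+ cells, which include the stem cells, through NGN3+ progenitors to KIT+ differentiating spermatogonia.

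Levels are log2 intensities with each array's 75th percentile set to 0, and levels of different probes are not set against each other. A ratio is a difference of such levels. Testing needed the scanner's flag for a signal well above background in all 3 replicates of either group. A gene was called where the limma adjusted p over all genes tested was under 0.05. In RNA from many cells, fewer cells with a transcript and less of it per cell cannot be told apart. The arrays lie on 3 slides: GFRα1+ replicates 1 and 2 and whole testes replicate 1 on the first, GFRα1+ replicate 3 and all NGN3+ and KIT+ arrays on the second, and the other 2 whole-testes arrays on the third. Replicates of a group correlated at 0.988 to 0.997 over probes well above background on all 12 arrays. The share of probes well above background per array was 50.1% to 50.8% in GFRα1+ and 59.5% to 65.1% in NGN3+ cells. It was 54.8% to 62.0% in KIT+ cells and 54.8% to 57.6% in whole testes. The mRNAs of the sorting genes peaked where the labels put them (Gfra1 at 1.65 ± 0.16 in GFRα1+, Neurog3 at 5.23 ± 0.43 in NGN3+ and Kit at 4.55 ± 0.11 in KIT+ cells), and Neurog3 was also present in GFRα1+ cells (4.13 ± 0.21). Markers of other cells were not all absent from the sorted fractions: Sertoli cell markers stood at a median of 13.7% to 16.9% of whole testes, and Leydig cell markers at 7.68% to 8.51%. Red blood cell markers (2 genes) were at 2.11% to 11.4%, and macrophage markers at 44.3% to 95.1%. In GFRα1+, NGN3+ and KIT+ cells 8, 10 and 10 of 12 Sertoli markers were well above background on all 3 arrays. So were 1, 2 and 2 of 6 Leydig markers, 2, 3 and 3 of 5 macrophage markers and 1 red blood cell marker in each. The medians include markers that were not detected, so a share need not reflect such cells. A like median can also hide markers that differ between fractions, as some Sertoli markers given with Ybx2 did. Peritubular myoid and endothelial markers are given below with Igf2bp3.

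The sequences of 3 probes are shown because they bear on how far a gene's signal depends on the stretch of transcript that is read. Each has at least 1 reading frame with no stop codon over its 60 bases. The brighter Elavl2 probe, which is not shown, has 1 too, so the frame does not tell whether a probe lies in coding sequence. The Elavl2 probe lies at chr4:90919992-90920051 (mm9, minus strand), and the Fmr1 probes at chrX:65948200-65948259 and chrX:65948720-65948779 (mm9, plus strand).
Elavl2 A_55_P2020438: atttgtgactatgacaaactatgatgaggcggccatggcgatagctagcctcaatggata
Fmr1 A_55_P2183110: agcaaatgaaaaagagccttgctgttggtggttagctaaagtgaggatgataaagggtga
Fmr1 A_52_P493091: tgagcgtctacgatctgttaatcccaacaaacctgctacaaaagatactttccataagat

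Promoters, taken from RefSeq on GRCm38.p6 as the 250 bases before and 50 after a transcript start, were matched for 9 of the 10 genes, with 17 windows in all. The table has none for Igf2bp1. They are shown for Dazl and for Igf2bp2 and Igf2bp3, the only members lower in KIT+ than in NGN3+ cells. Capitals mark matches, on either strand, to CACGTG, known as an E-box, or to the hexamers TCCCGC, part of E2F sites, and GGGCGG, the GC box, overlapping matches included. The Dazl window is chr17:50293571-50293870, that of Igf2bp2 chr16:22163250-22163549 and that of Igf2bp3 chr6:49214905-49215204, all on the minus strand.
Dazl: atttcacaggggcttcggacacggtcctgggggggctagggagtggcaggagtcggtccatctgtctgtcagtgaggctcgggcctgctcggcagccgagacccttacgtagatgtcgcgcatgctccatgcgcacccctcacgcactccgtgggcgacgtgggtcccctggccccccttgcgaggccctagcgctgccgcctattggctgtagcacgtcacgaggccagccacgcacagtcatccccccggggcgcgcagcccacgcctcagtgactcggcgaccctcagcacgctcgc
Igf2bp2: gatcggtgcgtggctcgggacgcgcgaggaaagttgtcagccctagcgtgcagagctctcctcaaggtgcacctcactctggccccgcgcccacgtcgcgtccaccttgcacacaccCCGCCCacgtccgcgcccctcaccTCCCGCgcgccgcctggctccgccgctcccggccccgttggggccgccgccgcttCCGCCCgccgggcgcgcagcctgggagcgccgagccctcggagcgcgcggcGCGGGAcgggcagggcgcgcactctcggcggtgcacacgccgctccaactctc
Igf2bp3: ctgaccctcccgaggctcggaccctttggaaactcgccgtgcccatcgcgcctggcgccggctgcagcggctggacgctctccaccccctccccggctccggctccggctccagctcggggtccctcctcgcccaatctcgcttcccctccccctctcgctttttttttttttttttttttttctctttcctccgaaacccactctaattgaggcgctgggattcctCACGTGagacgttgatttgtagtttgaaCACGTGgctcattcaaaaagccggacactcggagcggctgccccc

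The Dazl window holds 28 CpG, more than 85.8% of the 32851 windows of that length, which have a median of 7, and holds none of the 3 motifs. The Igf2bp2 window holds 47 CpG, more than 98.6% of windows, with 2 matches each to the E2F hexamer and the GC box. That of Igf2bp3 holds 25 CpG and 2 matches to the E-box. Of all windows, 7.15% hold the E-box, 20.0% the E2F hexamer and 35.7% the GC box. Of the other genes, Cpeb1 and both windows of Fmr1 hold all 3 motifs, and the window of Tia1, with 12 CpG, holds none. A match describes the letters of a window and says nothing of a factor bound there.

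**Figure D1:**
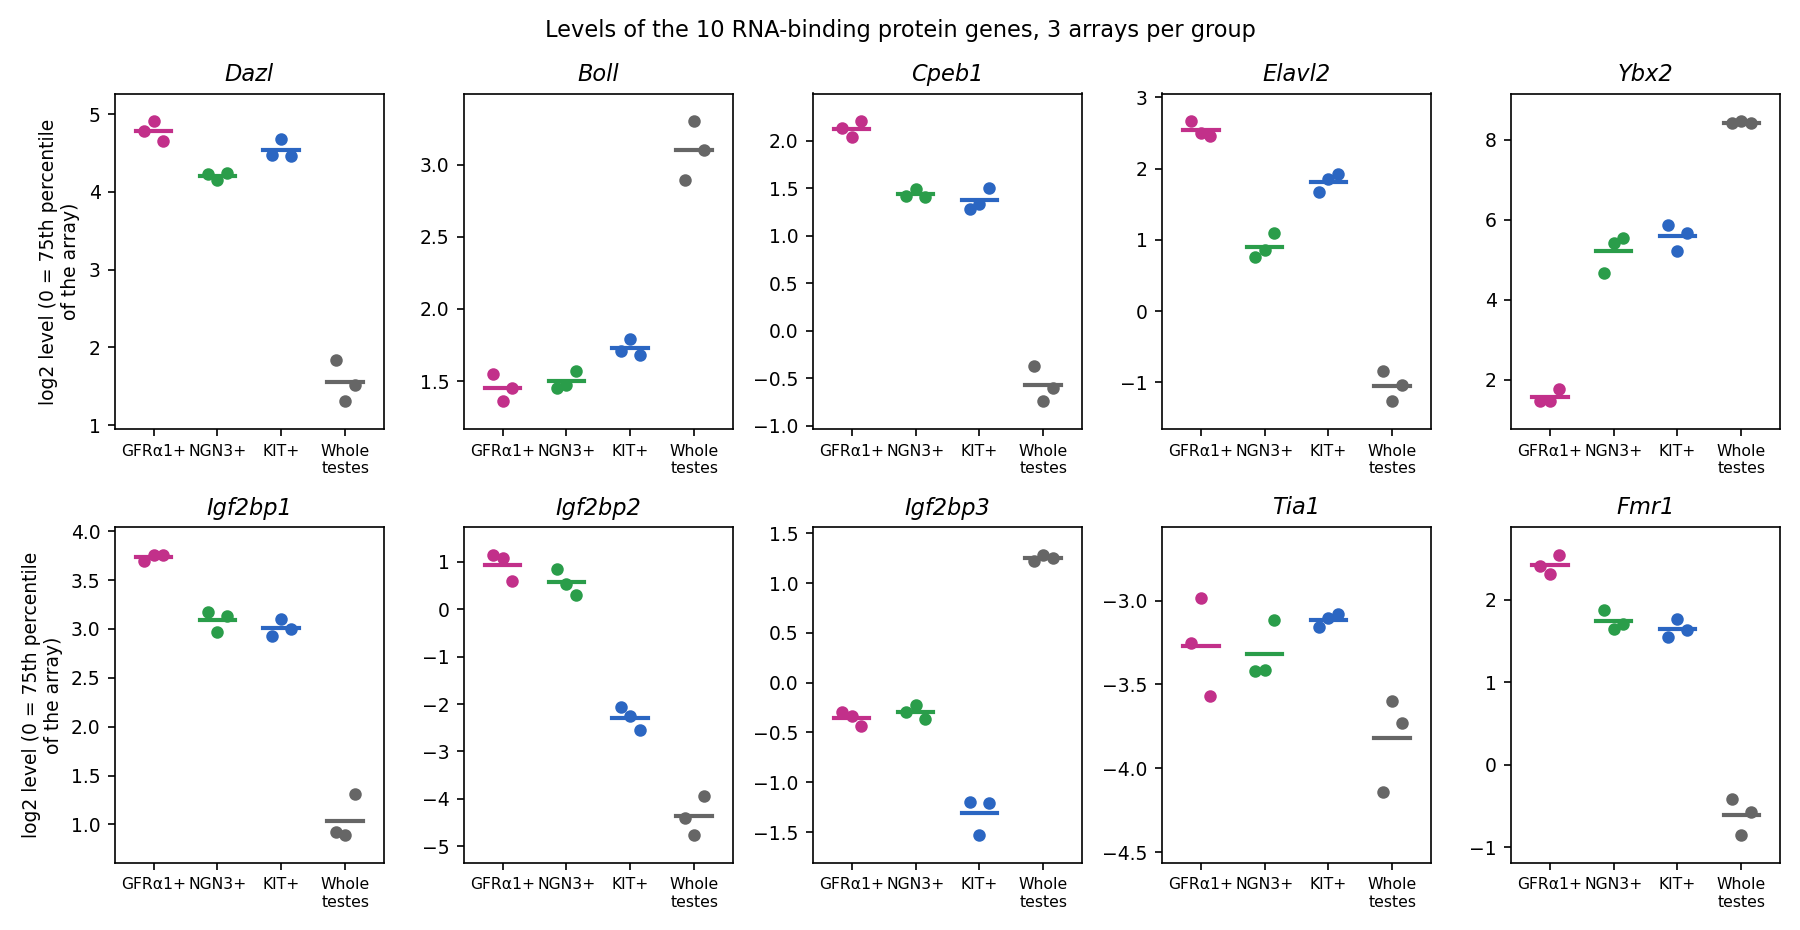
Log2 level of each gene on every array (y axis, own range in each panel, 0 is the 75th percentile of the array), for the 3 sorted fractions and, last, whole testes. Points are arrays and lines are means of 3. Igf2bp2 and Igf2bp3 drop in KIT+ cells, whereas Ybx2 stands far higher in NGN3+ and KIT+ than in GFRα1+ cells.

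Dazl was abundant in every spermatogonial fraction and dipped in NGN3+ cells. Its probe, at chr17:50418923-50418982 (mm9, minus strand), read 4.78, 4.90 and 4.65 in GFRα1+ cells, 4.23, 4.16 and 4.24 in NGN3+ cells, 4.48, 4.68 and 4.46 in KIT+ cells, and 1.84, 1.31 and 1.51 in whole testes. All NGN3+ arrays lay below all others of the sorted cells, while the KIT+ and GFRα1+ ranges overlapped. The transcript was 1.48-fold lower in NGN3+ than in GFRα1+ cells (log2 ratio −0.57 ± 0.11 SE, adjusted p = 0.00249). It was 1.26-fold higher in KIT+ than in NGN3+ cells (0.33 ± 0.11, adjusted p = 0.0434), a call that was lost when any single array of the 2 groups was left out (log2 ratios 0.26 to 0.37, adjusted p 0.0698 to 0.132). Between KIT+ and GFRα1+ cells the test was not passed (−0.23, 95% interval −0.48 to 0.01, adjusted p = 0.0855). Dazl thus ran, high to low, GFRα1+, KIT+, NGN3+ and whole testes, with the first pair of neighbours not told apart. Against whole testes it was 9.35-fold higher in GFRα1+, 6.31-fold in NGN3+ and 7.95-fold in KIT+ cells (adjusted p 1.31e-09, 1.77e-08 and 7.4e-09). Of the 3 listed mRNAs that DAZL is known to bind in the mouse, Ddx4 (−0.37, adjusted p = 0.0215), Sycp3 (−0.30, adjusted p = 0.04) and Tex19.1 (−0.74, adjusted p = 0.000863) were each called lower in NGN3+ than in GFRα1+ cells. In that comparison 36.4% of all genes tested were called lower and the median ratio was −0.19.

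Boll, whose product acts in spermatids of the mouse, differed little between the fractions and was highest in whole testes. The levels were 1.55, 1.36 and 1.45 in GFRα1+ cells, 1.46, 1.48 and 1.57 in NGN3+ cells, 1.71, 1.79 and 1.68 in KIT+ cells, and 2.90, 3.30 and 3.11 in whole testes. GFRα1+ and NGN3+ arrays overlapped, and every KIT+ array lay above them. KIT+ cells exceeded GFRα1+ cells by 1.21-fold (0.27 ± 0.10, adjusted p = 0.0326). This call was lost with slide as a block (0.27, adjusted p = 0.134), without the filter on dim probes (adjusted p = 0.0641), with all 12 arrays in the fit (adjusted p = 0.0572), and when any array of the 2 groups but GFRα1+ 1 was left out (0.22 to 0.29, adjusted p 0.0583 to 0.116). KIT+ against NGN3+ (0.23, 95% interval 0.01 to 0.45, adjusted p = 0.104) and NGN3+ against GFRα1+ (0.04, −0.18 to 0.26, adjusted p = 0.715) were not called. Whole testes exceeded the sorted cells by 3.13-fold (GFRα1+), 3.03-fold (NGN3+) and 2.59-fold (KIT+).

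Cpeb1 was lower in both NGN3+ and KIT+ cells than in GFRα1+ cells. The probe, at chr7:88492337-88492396 (mm9, minus strand), gave 2.14, 2.04 and 2.20 in GFRα1+ cells, 1.42, 1.49 and 1.41 in NGN3+ cells, 1.28, 1.34 and 1.50 in KIT+ cells, and −0.37, −0.74 and −0.61 in whole testes. The GFRα1+ arrays stood clear of all others, and NGN3+ and KIT+ arrays overlapped. NGN3+ cells were 1.61-fold lower than GFRα1+ cells (−0.69 ± 0.10, adjusted p = 0.000597) and KIT+ cells 1.69-fold lower (−0.75 ± 0.10, adjusted p = 0.000183), whereas KIT+ and NGN3+ cells did not pass (−0.07, 95% interval −0.30 to 0.16). All 3 fractions were above whole testes, by 6.51-, 4.04- and 3.86-fold in GFRα1+, NGN3+ and KIT+ cells.

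Elavl2 had the deepest dip in NGN3+ cells relative to GFRα1+ cells among the 10 genes. The brighter of its 2 probes, at chr4:90917989-90918048 (mm9, minus strand), read 2.66, 2.49 and 2.46 in GFRα1+ cells, 0.75, 0.85 and 1.10 in NGN3+ cells, 1.68, 1.85 and 1.92 in KIT+ cells, and −0.84, −1.27 and −1.03 in whole testes. No 2 groups overlapped, so that the order was GFRα1+, KIT+, NGN3+ and whole testes. Elavl2 was 3.11-fold lower in NGN3+ than in GFRα1+ cells (−1.63 ± 0.13, adjusted p = 1.42e-05), 1.88-fold higher in KIT+ than in NGN3+ cells (0.91 ± 0.13, adjusted p = 0.000795), and still 1.65-fold lower in KIT+ than in GFRα1+ cells (−0.72 ± 0.13, adjusted p = 0.00092). The dimmer probe, shown above, gave the same order, with ratios of −1.43, 0.81 and −0.62 for these comparisons, each called in the fit over probes. Over 12 arrays the 2 probes correlated at 0.993. On the brighter probe the log2 ratio to whole testes was 3.58 in GFRα1+, 1.95 in NGN3+ and 2.86 in KIT+ cells, and on the dimmer probe 2.60, 1.17 and 1.98.

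Ybx2 went the other way, and moved together with the markers of later germ cells. Its brighter probe, at chr11:69755046-69755105 (mm9, plus strand), read 1.47, 1.46 and 1.77 in GFRα1+ cells, 4.66, 5.42 and 5.54 in NGN3+ cells, 5.86, 5.22 and 5.66 in KIT+ cells, and 8.41, 8.46 and 8.42 in whole testes. GFRα1+ arrays were far below, and NGN3+ and KIT+ arrays overlapped. NGN3+ cells were 12.5-fold higher than GFRα1+ cells (3.64 ± 0.25, adjusted p = 7.68e-06) and KIT+ cells 16.2-fold higher (4.01 ± 0.25, adjusted p = 1.99e-06), while KIT+ against NGN3+ was not called (0.37, 95% interval −0.21 to 0.95). The second probe gave 3.49, 3.86 and 0.37 for these comparisons. As a share of the whole-testes mean, the brighter probe stood at 0.858% in GFRα1+, 10.7% in NGN3+ and 13.9% in KIT+ cells.

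Spermatid markers followed the same course. All 18, among them Prm1, Prm2, Tnp1 and Akap4, were called higher in NGN3+ and in KIT+ than in GFRα1+ cells, and none was called between KIT+ and NGN3+ cells. Their median share of whole testes was 0.269% in GFRα1+, 8.44% in NGN3+ and 11.3% in KIT+ cells, with the log2 of the summed level at 5.32 to 6.28, 10.48 to 10.80 and 10.75 to 11.11, and 12.66 to 12.94 in whole testes. On all 3 arrays, 15 of the 18 were well above background in GFRα1+ cells and 18 in each other group. Of 10 pachytene markers, 8 were called higher in NGN3+ cells over GFRα1+ cells. They had a median share of 0.723%, 10.6% and 13.3% in GFRα1+, NGN3+ and KIT+ cells and log2 sums of 4.33 to 4.45, 6.87 to 7.64 and 7.19 to 7.80, against 10.00 to 10.16 in whole testes. The part of such cells or their RNA in the Ybx2 result was not tested.

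**Figure D2:**
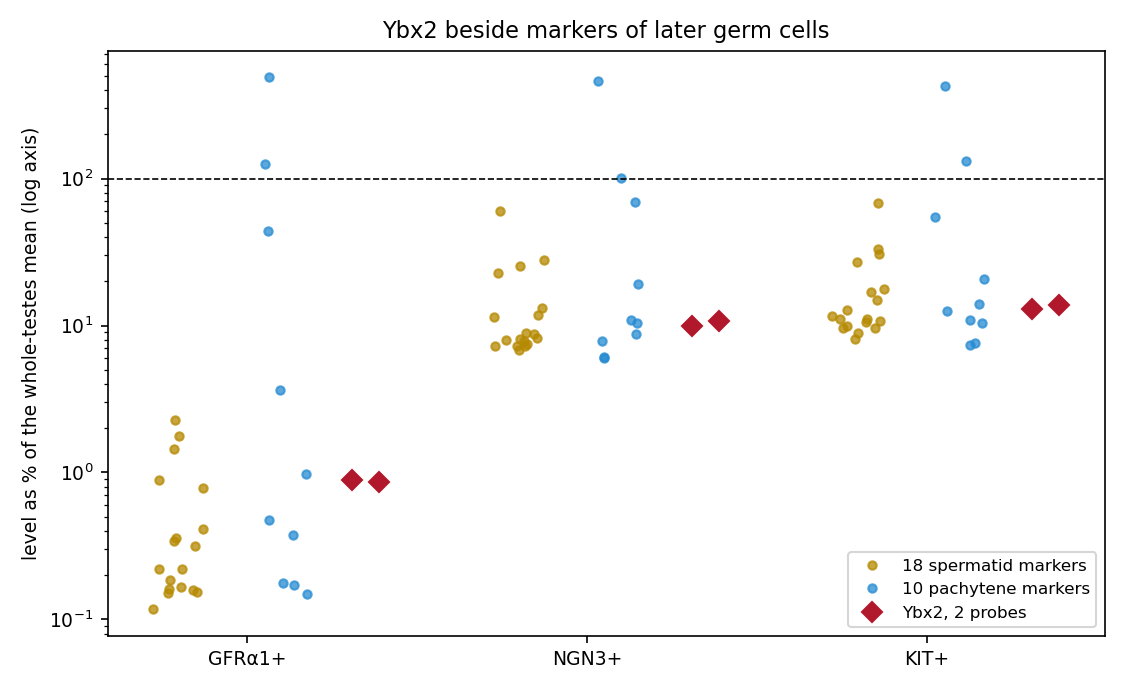
Level as a percentage of the whole-testes mean (y axis, log scale; dashed line at 100%) of 18 spermatid markers, 10 pachytene markers and the 2 Ybx2 probes in GFRα1+, NGN3+ and KIT+ spermatogonia; each point is the mean of 3 arrays. Ybx2, at 0.858% in GFRα1+ and 10.7% in NGN3+ cells on its brighter probe, lies among the markers in each fraction.

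The 3 Igf2bp genes each had a course of their own. Igf2bp1, read at chr11:95824526-95824585 (mm9, minus strand), gave 3.69, 3.75 and 3.76 in GFRα1+ cells, 3.17, 2.97 and 3.13 in NGN3+ cells, 2.93, 3.10 and 2.99 in KIT+ cells, and 0.92, 0.89 and 1.31 in whole testes. It was 1.56-fold lower in NGN3+ (−0.64 ± 0.10, adjusted p = 0.000794) and 1.65-fold lower in KIT+ than in GFRα1+ cells (−0.72 ± 0.10, adjusted p = 0.000218), with NGN3+ and KIT+ arrays overlapping. Its difference thus lay between GFRα1+ cells and the other fractions, as that of Cpeb1 did.

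Igf2bp2 differed between KIT+ cells and the rest. Its brighter probe, at chr16:22059260-22059319 (mm9, minus strand), read 1.15, 1.08 and 0.60 in GFRα1+ cells, 0.86, 0.54 and 0.30 in NGN3+ cells and −2.07, −2.24 and −2.55 in KIT+ cells. Whole testes read −4.41, −4.76 and −3.94, well above background on 1 of 3 arrays. GFRα1+ and NGN3+ arrays overlapped (−0.38, 95% interval −0.84 to 0.09, adjusted p = 0.145), and KIT+ arrays lay clear below both. Igf2bp2 was 7.24-fold lower in KIT+ than in NGN3+ cells (−2.86 ± 0.20, adjusted p = 3.7e-05) and 9.41-fold lower than in GFRα1+ cells (−3.23 ± 0.20, adjusted p = 1.99e-06). The second probe, at chr16:22059582-22059641, gave 6.58- and 7.47-fold. Against whole testes the brighter probe was at least 34.6-fold higher in GFRα1+ cells, at least 26.6-fold in NGN3+ cells and at least 3.68-fold in KIT+ cells. These bounds set the dim group on each array at its own value or at the lowest probe well above background, whichever was higher. They hold for this probe and this scale only. On the second probe they were 24.1-, 21.3- and 3.23-fold. The fit itself, without bounds, gave adjusted p of 1.58e-09, 9.73e-09 and 7.11e-06 on the brighter probe. With normexp background correction of the median signal and an offset of 50 in place of the processed signal, the log2 ratios to whole testes were 2.87, 2.73 and 0.51 in GFRα1+, NGN3+ and KIT+ cells, against 5.31, 4.94 and 2.08 on the scale used here.

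Igf2bp3 was also lower in KIT+ cells, but highest in whole testes. The probe, at chr6:49035710-49035769 (mm9, minus strand), read −0.30, −0.33 and −0.43 in GFRα1+ cells, −0.29, −0.23 and −0.37 in NGN3+ cells, −1.20, −1.53 and −1.21 in KIT+ cells, and 1.22, 1.28 and 1.26 in whole testes. GFRα1+ and NGN3+ arrays overlapped and no KIT+ array reached them. KIT+ cells were 2.02-fold lower than NGN3+ cells (−1.01 ± 0.12, adjusted p = 0.000328) and 1.94-fold lower than GFRα1+ cells (−0.96 ± 0.12, adjusted p = 0.000107). Sorted cells were below whole testes by 3.05-fold (GFRα1+), 2.93-fold (NGN3+) and 5.92-fold (KIT+). Some markers of somatic cell types were also lower in KIT+ than in NGN3+ cells. Of 6 myoid markers 4 were called lower, and of 5 endothelial markers 3, while 2 of each were not called. Of 10 Sertoli markers tested 2 were called lower, Trf (log2 ratio −2.58) and Wt1 (−0.83), and 8 were not called. Of 3 macrophage markers tested 1 was called lower, Cd14 (−0.83), and 2 were not called. The median share of whole testes of the myoid markers was 15.3% in KIT+ and 33.2% in NGN3+ cells, and that of the endothelial markers 18.1% in KIT+ and 62.0% in NGN3+ cells. In GFRα1+ cells these shares were 5.97% and 94.4%. Myoid log2 sums ranged from 0.98 to 1.41 in KIT+, 1.74 to 3.20 in NGN3+, −0.19 to 0.04 in GFRα1+ cells and 4.16 to 4.52 in whole testes, and endothelial sums from 2.08 to 2.18, 2.26 to 3.00, 2.99 to 3.79 and 3.86 to 4.09 in the same groups. Well above background on all 3 arrays were 4, 6, 2 and 6 of the myoid and 3, 5, 5 and 5 of the endothelial markers. The part of these cells in the Igf2bp2 and Igf2bp3 results was not tested.

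Fmr1 was lower after the GFRα1+ stage on all 3 of its probes. The brightest, at chrX:65970891-65970950 (mm9, plus strand), read 2.41, 2.31 and 2.54 in GFRα1+ cells, 1.87, 1.65 and 1.71 in NGN3+ cells, 1.55, 1.77 and 1.63 in KIT+ cells, and −0.41, −0.85 and −0.57 in whole testes. Only the GFRα1+ arrays stood apart among the sorted cells. On this probe NGN3+ cells were 1.60-fold lower than GFRα1+ cells (−0.68 ± 0.11, adjusted p = 0.00121) and KIT+ cells 1.71-fold lower (−0.77 ± 0.11, adjusted p = 0.000322). The 2 probes shown above gave larger ratios for NGN3+ over GFRα1+ cells, −1.18 (95% interval −1.52 to −0.85) and −1.19 (−1.50 to −0.88), against an interval of −0.94 to −0.42 on the brightest probe. The 2 shown probes correlated at 0.998 with each other over 12 arrays, and at 0.966 and 0.964 with the third. Between KIT+ and NGN3+ cells they gave 0.30 and 0.38, and the third −0.09, and none of the 3 was called (adjusted p 0.163, 0.0614 and 0.573). The difference between probes was not tested. Fmr1 exceeded whole testes on the brightest probe by 8.19-, 5.12- and 4.79-fold in GFRα1+, NGN3+ and KIT+ cells.

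Tia1 was dim on both probes, near the limit of what the arrays could read, and was not called between sorted fractions on the scale used here. The brighter probe, at chr6:86381136-86381195 (mm9, plus strand), read −3.25, −2.98 and −3.57 in GFRα1+ cells, −3.42, −3.41 and −3.12 in NGN3+ cells, −3.16, −3.11 and −3.08 in KIT+ cells, and −4.14, −3.60 and −3.73 in whole testes. The sorted fractions overlapped, with 95% intervals of −0.41 to 0.31 for NGN3+ over GFRα1+, −0.16 to 0.57 for KIT+ over NGN3+ and −0.20 to 0.51 for KIT+ over GFRα1+. The sign of the ratio turned with the scaling for NGN3+ over GFRα1+ and KIT+ over GFRα1+ cells. With normexp the NGN3+ over GFRα1+ ratio was −0.26 and was called (adjusted p = 0.039). The second probe was well above background in NGN3+ and KIT+ cells only. On that probe NGN3+ over GFRα1+ cells gave 0.65, with no overlap of arrays, and was not called (adjusted p = 0.0705). On the brighter probe the sorted cells exceeded whole testes by 1.47-fold (GFRα1+), 1.42-fold (NGN3+) and 1.63-fold (KIT+), with adjusted p of 0.0118, 0.0206 and 0.00299. These calls depended on the processing. With the percentile taken over detected probes only, the log2 ratios were 0.15 in GFRα1+ (adjusted p = 0.435) and 0.28 in NGN3+ cells (adjusted p = 0.155), and with normexp they were 0.087 in NGN3+ (adjusted p = 0.428) and 0.22 in KIT+ cells (adjusted p = 0.051), none of them called. The GFRα1+ call was also lost without GFRα1+ 2 (0.41, adjusted p = 0.0543) or whole testes 1 (0.39, adjusted p = 0.0519), and the NGN3+ call without NGN3+ 3 (0.40, adjusted p = 0.08) or whole testes 1 (0.34, adjusted p = 0.0867).

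**Figure D3:**
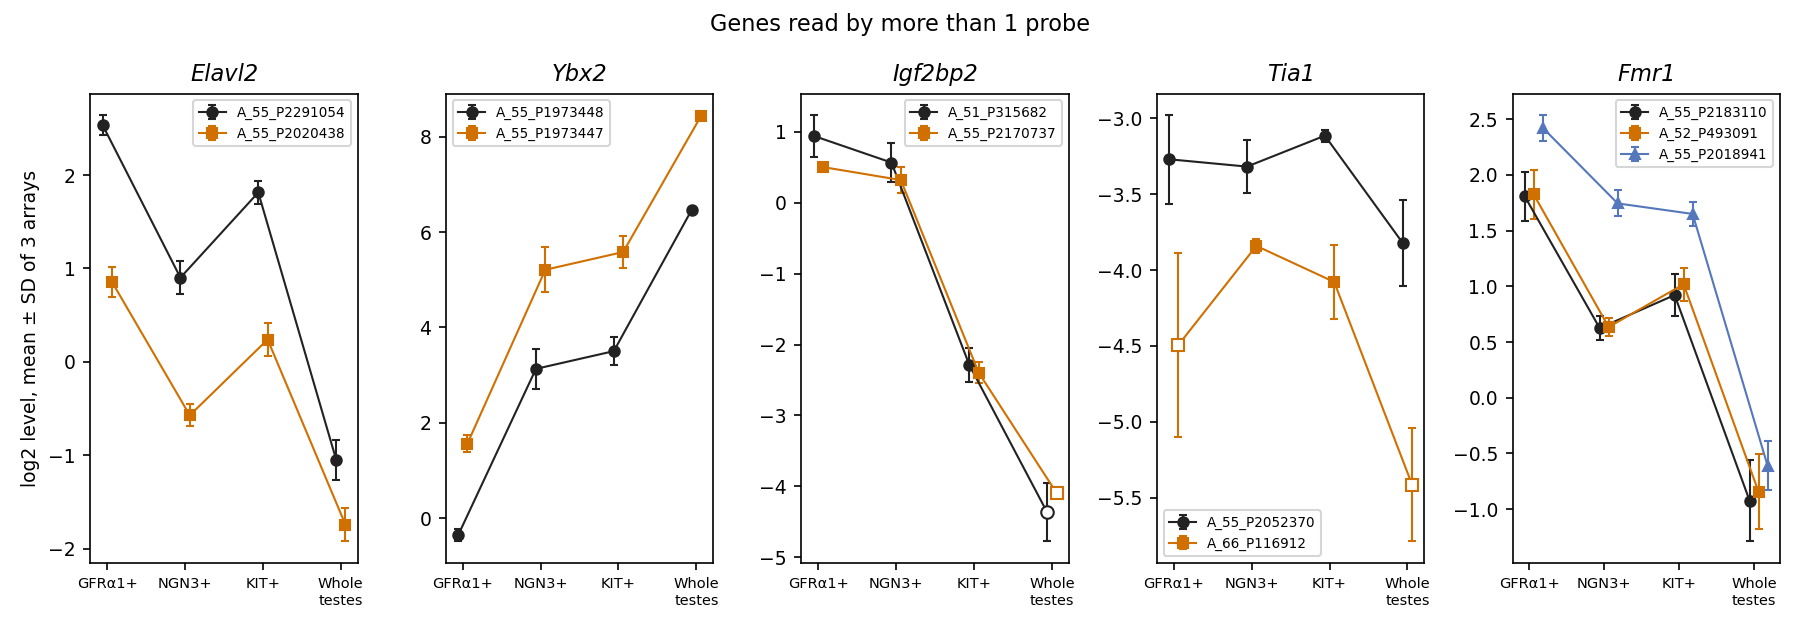
Mean log2 level ± SD of 3 arrays (y axis, own range in each panel) for every probe of the 5 genes with more than 1 probe, by sorted fraction and, last, whole testes. Open symbols mark groups with fewer than 3 arrays well above background, and the probes of a gene differ in the size of some steps, as those of Fmr1 do between GFRα1+ and NGN3+ cells (−1.18 and −1.19, against −0.68).

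Counted over the set, 5 of 10 genes fell and 1 rose in NGN3+ cells relative to GFRα1+ cells, where 36.4% and 20.0% of all genes tested were. The median ratio was −0.47 for the set and −0.19 over all 23790 genes tested. The genes that fell were Dazl, Cpeb1, Elavl2, Igf2bp1 and Fmr1, and Ybx2 rose. Over 19 alternative settings the ratio was −0.63 to −0.31 for Dazl, −0.76 to −0.46 for Cpeb1 and −1.73 to −1.47 for Elavl2. It was −0.81 to −0.45 for Igf2bp1, −1.02 to −0.51 for Fmr1 and 3.44 to 3.92 for Ybx2. In KIT+ against NGN3+ cells 2 were higher (Dazl and Elavl2) and 2 lower (Igf2bp2 and Igf2bp3), beside 17.5% and 17.0% of all genes, with medians of 0.07 and 0.05. In KIT+ against GFRα1+ cells 2 were higher (Boll and Ybx2) and 6 lower, beside 26.6% and 39.5% of all genes, with medians of −0.72 and −0.16. These splits over all genes depend on the scaling. When only probes detected on every array fitted set the 75th percentile, NGN3+ over GFRα1+ cells gave 5838 genes higher and 6107 lower, against 4767 and 8657 on the scale used here. For KIT+ over NGN3+ cells that scaling gave 4085 higher and 4851 lower, against 4223 and 4104, and for KIT+ over GFRα1+ cells 7241 and 7970, against 6114 and 9085. Since most genes tested were called in both comparisons with GFRα1+ cells, these counts say little on the set by itself.

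Against whole testes, each fraction had the same 7 genes higher and the same 3 (Boll, Ybx2 and Igf2bp3) lower. Of all genes tested, 49.9% were higher and 37.5% lower in GFRα1+ cells, 44.1% and 39.6% in NGN3+ cells, and 43.3% and 41.6% in KIT+ cells. With the percentile over detected probes only, 10580 genes were higher and 10575 lower in GFRα1+ cells (12077 and 9078 here), 10145 and 11101 in NGN3+ cells (11164 and 10046 here) and 9614 and 11524 in KIT+ cells (10690 and 10279 here). The 3 comparisons share the whole-testes arrays. Median ratios of the set were 2.70, 1.98 and 1.96 in GFRα1+, NGN3+ and KIT+ cells, beside 0.39, 0.13 and 0.05 over all genes.

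GFRα1+ cells came from another mouse line and another gate than NGN3+ and KIT+ cells, a difference that a comparison within a slide does not remove. The GFRα1+ arrays also lie mostly on another slide than the other sorted cells, so the ratios were taken on the second slide alone as well, against GFRα1+ replicate 3. That fit has 1 GFRα1+ array, which is assumed to vary like the NGN3+ and KIT+ arrays that alone give its spread. Of the 6 genes called in NGN3+ against GFRα1+ cells, 5 passed there, with ratios of −0.76 for Cpeb1, −1.56 for Elavl2, 3.44 for Ybx2, −0.67 for Igf2bp1 and −0.80 for Fmr1 (adjusted p 0.000723 to 0.0177). Dazl gave −0.44 there and did not pass. The same ratio passed with slide as a block over all 9 arrays (adjusted p = 0.0446). In that fit GFRα1+ replicates 1 and 2, alone on the first slide, add only to the spread. The ratio thus still rests on GFRα1+ replicate 3. For KIT+ over GFRα1+ cells the values on that slide were −0.83 for Cpeb1, −0.64 for Elavl2, 3.81 for Ybx2, −0.75 for Igf2bp1, −2.89 for Igf2bp2, −0.88 for Igf2bp3 and −0.89 for Fmr1 (adjusted p 0.000166 to 0.0263), while Boll did not pass (0.27, adjusted p = 0.154). On the first slide, which holds 2 GFRα1+ arrays and 1 of whole testes, all 10 genes had the direction they had against whole testes over all arrays. No p is given for it, since only 2 arrays give the spread. NGN3+ and KIT+ cells share no slide with whole testes, and with slide as a block, linked through the GFRα1+ arrays, all 10 kept their direction and call against whole testes (largest adjusted p = 0.00182, for Tia1 in NGN3+ cells).

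**Figure D4:**
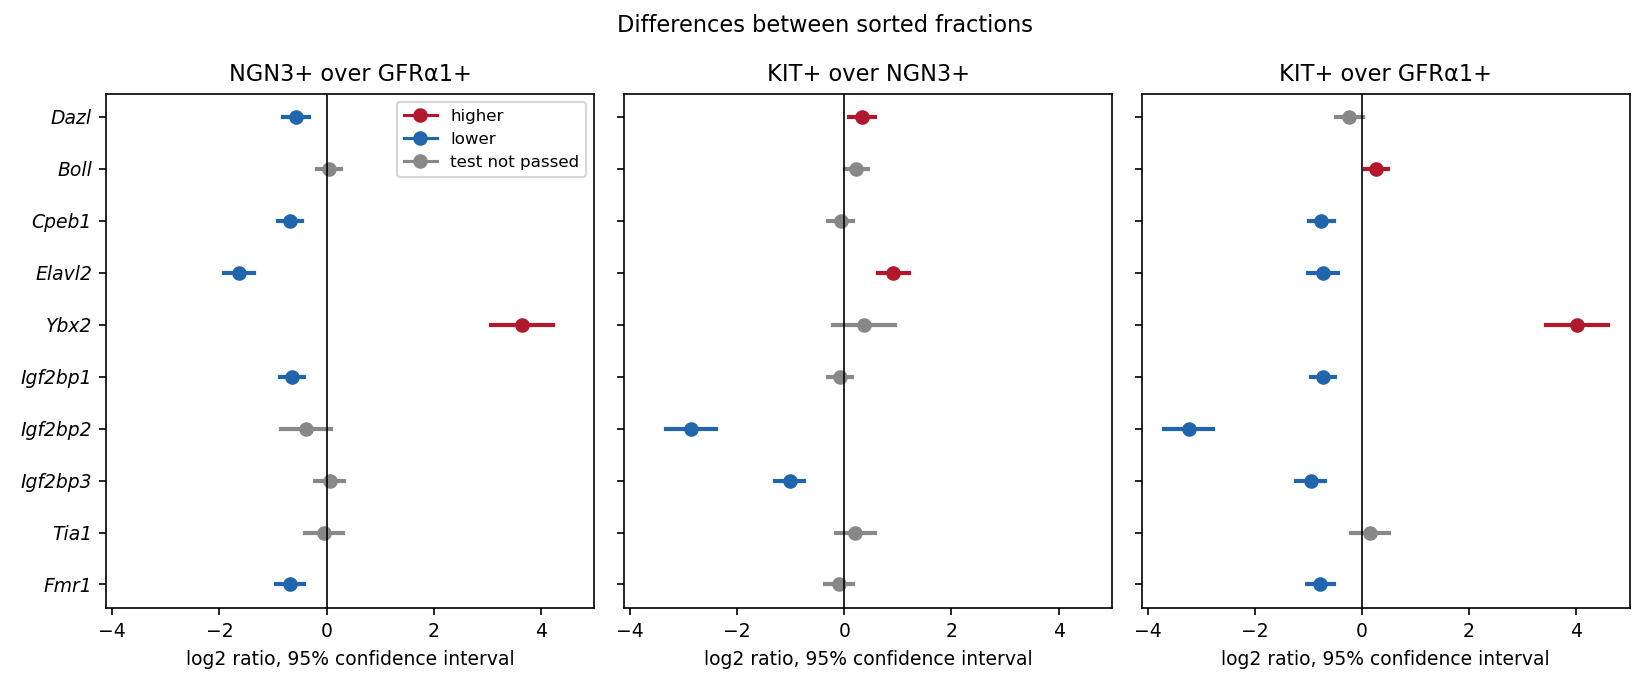
Log2 ratio (x axis) of each of the 10 genes for NGN3+ over GFRα1+, KIT+ over NGN3+ and KIT+ over GFRα1+ spermatogonia, with 95% confidence intervals from the fit over 9 arrays and the gene's brightest probe. Red is higher, blue lower and grey did not pass; 5 genes are lower and 1 is higher in NGN3+ than in GFRα1+ cells.

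Close relatives of these genes split in the same comparisons. The counts of this and the other lists stand beside 20.0% of all genes tested higher and 36.4% lower in NGN3+ over GFRα1+, 17.5% and 17.0% in KIT+ over NGN3+, and 26.6% and 39.5% in KIT+ over GFRα1+ cells, shares that move with the scaling as given above. Relative to GFRα1+ cells, 3 of 11 rose and 3 fell in NGN3+ cells (median −0.13). Cpeb2, which binds the same kind of element as CPEB1, was at 1.62 ± 0.50 (SD, n = 3 in each group) in NGN3+ and −2.28 ± 0.14 in GFRα1+ cells (adjusted p = 8.93e-06), and Ybx3, the somatic and germ cell relative of Ybx2, at 4.84 ± 0.42 and 3.18 ± 0.14 (adjusted p = 0.000366). Both were brightest in whole testes (5.17 ± 0.15 and 7.92 ± 0.19) and moved with the spermatid markers given above. Tial1, the relative of Tia1, was lower in NGN3+ cells (3.96 ± 0.06, against 4.64 ± 0.05 in GFRα1+ cells, adjusted p = 0.000908), as was Cpeb3 (−1.62 ± 0.02 and −1.01 ± 0.19, adjusted p = 0.00427). In KIT+ against NGN3+ cells 1 of 11 was higher and 1 lower, Elavl3 (1.97 ± 0.53 SE, adjusted p = 0.0199) and Cpeb3 (−0.71 ± 0.13 SE, adjusted p = 0.00343). In KIT+ against GFRα1+ cells 4 were higher and 4 lower. Fxr1, a relative of Fmr1, rose in NGN3+ cells relative to GFRα1+ cells (0.48, adjusted p = 0.00446), the opposite of Fmr1.

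Of 16 genes of the poly(A) and cap machinery with which CPEB1 and DAZL act, 1 rose and 6 fell in NGN3+ cells relative to GFRα1+ cells (median −0.25). Tob1, which recruits a deadenylase, was at −0.37 ± 0.12 in NGN3+ and 1.01 ± 0.15 in GFRα1+ cells (adjusted p = 3.48e-05). Cpsf2, of the cleavage and polyadenylation complex, was at −3.03 ± 0.54 and −1.20 ± 0.27 (adjusted p = 0.000594), and Eif4e, the cap-binding factor, at 3.37 ± 0.14 and 3.96 ± 0.11 (adjusted p = 0.0034). In KIT+ against NGN3+ cells 4 were higher and none lower, Pabpc4 (0.86 ± 0.12 SE), Cpsf2 (1.45 ± 0.27), Tob1 (0.55 ± 0.12) and the deadenylase gene Parn (0.48 ± 0.11), with adjusted p of 0.000945 to 0.0106. In KIT+ against GFRα1+ cells 2 were higher and 5 lower: Pabpc4 rose by 1.30 (adjusted p = 2.19e-05), Tob1 fell by 0.83 (adjusted p = 0.000358), and Pabpc1, the main cytoplasmic poly(A)-binding protein gene, fell by 0.62 (adjusted p = 0.00111). The median ratio over all genes was −0.19, 0.05 and −0.16 in these comparisons.

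Among 7 stress granule genes, none rose and 2 fell in NGN3+ cells relative to GFRα1+ cells, G3bp2 (−0.77 ± 0.10 SE) and G3bp1 (−0.41 ± 0.13). Usp10 and G3bp1 were lower in KIT+ than in NGN3+ cells. Usp10, a partner of G3BP1, was at 0.27 ± 0.14 in KIT+ and 1.98 ± 0.19 in NGN3+ cells (adjusted p = 4.52e-05), and G3bp1 at 2.81 ± 0.11 and 3.83 ± 0.22 (adjusted p = 0.000528). Of the 7, 1 was higher and 3 lower in KIT+ than in NGN3+ cells, and 1 higher and 5 lower than in GFRα1+ cells. The 4 genes of FMRP partners gave 0 higher and 1 lower (Nufip2, −0.49 ± 0.11 SE) in NGN3+ against GFRα1+ cells. In KIT+ against NGN3+ cells Nufip1 was higher (1.87 ± 0.14, adjusted p = 4.96e-05) and Cyfip2 lower (−1.15 ± 0.17, adjusted p = 0.00122), and both differed the same way from GFRα1+ cells.

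Of 15 mRNAs known from mouse work as targets of a member, 12 were tested in each comparison of sorted cells, since Myc, Map1b and Camk2a were not well above background on all arrays of a group. In NGN3+ against GFRα1+ cells 2 were higher and 8 lower. The 2 were the protamine genes Prm1 and Prm2, whose mRNAs YBX2 binds and which are also on the spermatid list (5.08 ± 0.28 SE and 5.16 ± 0.32). The lower ones included H19, which the IGF2BP proteins bind (−1.54 ± 0.16, adjusted p = 7.03e-05), and Cd44 (−1.24 ± 0.15, adjusted p = 0.000171). In KIT+ against NGN3+ cells 3 were higher and 2 lower. Dlg4, an FMRP target, was at least 3.54-fold lower, being well above background on 1 of 3 KIT+ arrays (adjusted p = 0.000659 without the bound). Arc, another, was higher (0.86 ± 0.20, adjusted p = 0.0111), as were Sycp1 and Sycp3, which encode proteins of the synaptonemal complex (0.36 ± 0.09 and 0.45 ± 0.11, adjusted p = 0.0123 and 0.0111). Igf2, the transcript for which the IGF2BP family is named, was at −2.25 ± 0.25 in KIT+, −1.66 ± 0.18 in NGN3+ and −0.12 ± 0.28 in GFRα1+ cells, called lower in KIT+ than in either. In KIT+ against GFRα1+ cells 3 targets were higher and 7 lower.

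Of 12 other germ cell RNA-binding protein genes, none rose and 7 fell in NGN3+ cells relative to GFRα1+ cells (median −0.34), beside 20.0% and 36.4% of all genes tested (median −0.19). Rbm44, of intercellular bridges, fell by 1.08 (adjusted p = 0.000308), and Msi2, of the Musashi family, by 0.73 (adjusted p = 0.001). In KIT+ against NGN3+ cells 6 were higher and 4 lower (median 0.33), beside 17.5% and 17.0% of all genes. Msi2 was at 0.89 ± 0.04 in KIT+ and 2.51 ± 0.20 in NGN3+ cells (adjusted p = 4.07e-05), and Lin28a, which binds let-7 precursors, at 3.46 ± 0.23 and 5.11 ± 0.36 (adjusted p = 0.000378), while its relative Lin28b was higher (0.65 ± 0.10 SE, adjusted p = 0.0015). Stau1 was lower (−1.05 ± 0.14 SE, adjusted p = 0.000565). In KIT+ against GFRα1+ cells 1 was higher and 4 lower.

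**Figure D5:**
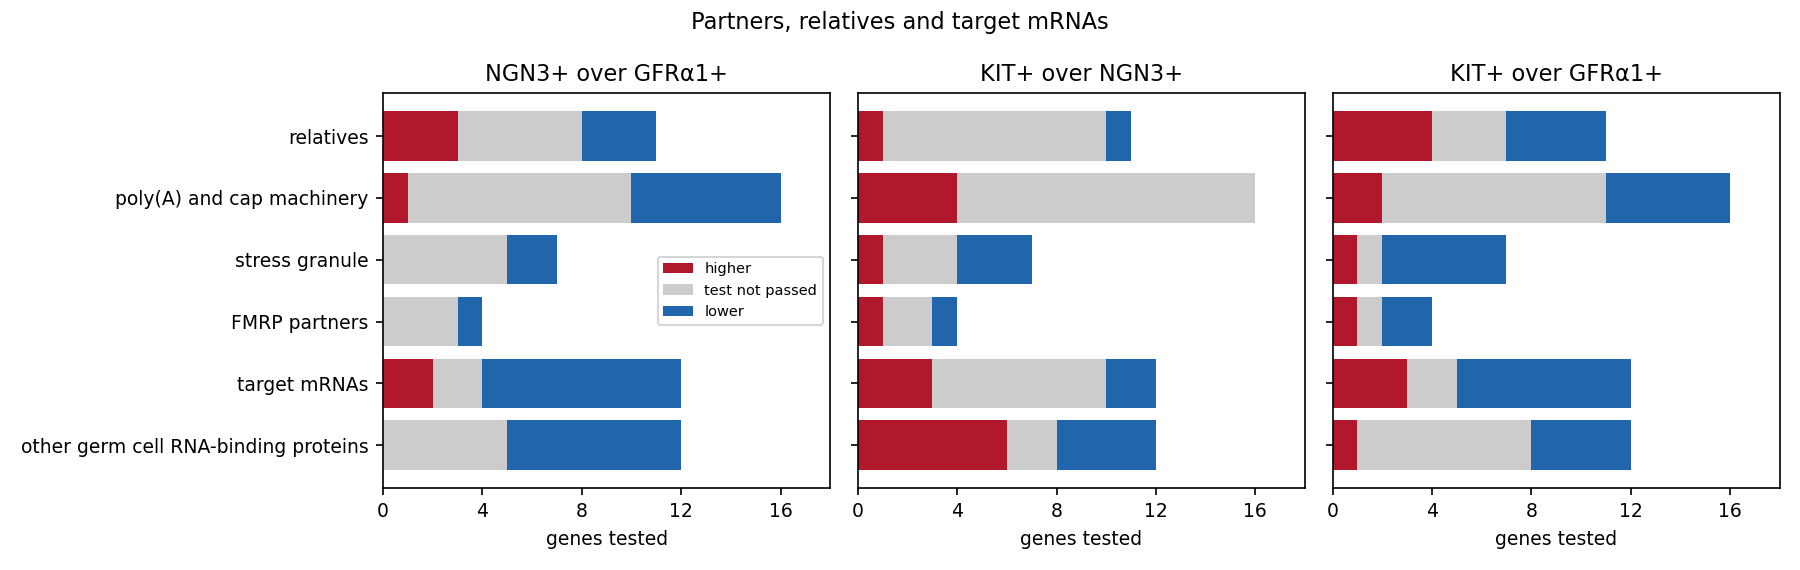
Number of genes (x axis) in each list of relatives, partners, targets and other germ cell RNA-binding proteins that were higher (red), did not pass (grey) or were lower (blue) in NGN3+ over GFRα1+, KIT+ over NGN3+ and KIT+ over GFRα1+ spermatogonia. The list of other germ cell RNA-binding proteins has 0 higher and 7 lower in NGN3+ over GFRα1+ cells, and 6 higher and 4 lower in KIT+ over NGN3+ cells, beside 20.0% and 36.4%, and 17.5% and 17.0%, of all genes tested.

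The genes whose levels ran closest to a member's were taken from 18437 genes with a RefSeq symbol, by Pearson's r over 12 arrays, on which the contrast with whole testes weighs most. For Dazl they were Ube2e3, Mrps35 and Ppil1 (r = 0.999, 0.998 and 0.998). For Elavl2 they were Map3k3, Suox and Rbmxl1 (0.996, 0.995 and 0.995). Map3k3 averaged 0.85 in GFRα1+, −0.10 in NGN3+ and 0.42 in KIT+ cells. Genes picked for their likeness on these same arrays share a member's course by choice, which is no separate result. Igf2bp1 ran closest to Dync1li1, the translation factor gene Eif4a1, and Zfp207 (0.998, 0.997 and 0.997), and Boll to Cep83, Me1 and Vdac2 (each 0.994).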

How the data were processed

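RNA of 12 samples in 4 groups was measured on Agilent 1-colour 8x60K mouse arrays. The authors scanned them with Agilent Feature Extraction (versions 10.7.1.1 and 10.7.3.1 per the file headers), which gave the deposited processed signal, an intensity on a linear scale after background subtraction. The deposited log2 table of the authors was compared with these files: it is log2 of that signal minus the 75th percentile of each array, with no centring of genes, for 100% of probes within 0.001 once a constant of 0.00202 to 0.00857 per array was taken off. Its array medians ran from −3.84 to −3.44. Probe coordinates are of mm9.

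Here log2 of the processed signal was taken, outlier spots (103 to 161 per array) were left out, spots of a probe were averaged, and the 75th percentile (an intensity of 318 to 675) was subtracted. No spot was saturated. Gene names were updated through RefSeq (GRCm38.p6) for 26413 probes by accession, 3859 by symbol and 735 by synonym. Each gene was represented by its brightest probe among the arrays fitted, and other probes of members came from the same fit over probes. limma 3.58.1 in R 4.3.3 (lmFit, eBayes, Benjamini-Hochberg, 2-sided) was run on the 9 arrays of sorted cells, and on all 12 for whole testes. The script was tested on simulated arrays. The study used GeneSpring for its statistics and names a t-test with Benjamini-Hochberg correction, and such a t-test was run as an alternative. With 3 arrays against 3 an exact permutation test cannot go below p = 0.1, and the number of arrays limits the precision.

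The members and lists were chosen with earlier results of these data known. Every member is named, and of each list at most 4 genes per comparison, taken in order of adjusted p, besides relatives, partners and targets named with a member.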

Additional observations from a re-analysis of the deposited data

How the results depend on the processing

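The number of members called stayed within 1.5 times its value under every alternative run, at 5 to 7 for NGN3+ over GFRα1+ (6 here), 3 to 5 for KIT+ over NGN3+ (4 here), 7 to 8 for KIT+ over GFRα1+ (8 here) and 9 to 10 against whole testes (10 here). Of 1117 member ratios recomputed, 1067 kept their direction and side of the threshold, 32 lost the call, 6 gained one and 12 turned their sign. None of the 12 had been called. The Tia1 ratio of NGN3+ over GFRα1+ cells became 0.12 with the percentile taken over detected probes only, 0.30 with the mean of probes, 0.25 with slide as a block and 0.25 within slide 2, and ranged from −0.20 to 0.094 with 1 array left out, including 0.0031 and 7.1e-05 without NGN3+ 1 and NGN3+ 2. Boll ranged from −0.0037 to 0.092 there, the lowest without GFRα1+ 2. With the mean of probes, KIT+ over NGN3+ gave −0.017 for Tia1 and 0.20 for Fmr1, and KIT+ over GFRα1+ gave −0.011 for Tia1 after quantile normalization and −0.12 after normexp. The cause was not tested.

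Dazl in KIT+ over NGN3+ cells was the least stable call: it was also lost with quantile normalization (0.25), without the filter on dim probes (adjusted p = 0.0908), within slide 2 (adjusted p = 0.0548) and with all 12 arrays in the fit (adjusted p = 0.0891). Boll in KIT+ over GFRα1+ cells lost its call in 10 of 19 alternatives (log2 ratios 0.22 to 0.40 over all 19), and Tia1 against whole testes in 4 of 19 for GFRα1+ (0.15 to 1.02), 5 of 18 for NGN3+ (0.087 to 1.27) and 1 of 18 for KIT+ cells (0.22 to 1.48). Replicate numbers are shared between groups in the labels, and deviations of same-numbered arrays correlated at −0.55 to 0.26. Such values cannot show whether samples of the same number share mice. With the replicate block 7, 3 and 7 members were called in NGN3+ over GFRα1+, KIT+ over NGN3+ and KIT+ over GFRα1+ cells, and 10 in each comparison with whole testes. Other probes gave 4, 2 and 5 calls among the sorted cells with the block. Taking the percentile over detected probes only moved the median ratio of all genes to −0.02 for NGN3+ over GFRα1+ (−0.19 here), −0.03 for KIT+ over GFRα1+ (−0.16), and −0.02, −0.10 and −0.21 for GFRα1+, NGN3+ and KIT+ cells over whole testes (0.39, 0.13 and 0.05). Signal over background limits Tia1 on both probes and Igf2bp2 in whole testes.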
